A study of Mus musculus with 18 samples.

Results

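Metallothioneins are small cysteine-rich proteins that bind zinc and copper, and zinc transporters move zinc into or out of the cytosol. The study measured RNA in J774.1, a mouse macrophage cell line, to compare inhibitors of the transcriptional co-repressors CTBP1 and CTBP2 in cells with and without these proteins. Described here are 8 genes of zinc handling, found by their symbols among the 18204 genes of the deposited table: the metallothioneins Mt1 and Mt2, the metal-sensing transcription factor Mtf1, the zinc exporters Slc30a1 and Slc30a5 and the zinc importers Slc39a1, Slc39a6 and Slc39a10. All 8 passed the filter on low values. They were selected on their measured fold changes against vehicle in these samples, so the inhibitor responses, and their differences between the genotypes, are given as a description, with intervals and with no p-value printed. The comparison of genotypes under vehicle uses the same vehicle samples, so no p-value is printed for the 8 genes there either. Where the text says that one of them passed or was called, this places it against the threshold used for all genes and is not evidence for it.

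The 18 samples formed 6 groups of 3. Wildtype J774.1 cells and Ctbp1/2 double knockout cells (dKO), which carry CRISPR-made frameshift and stop mutations in both genes, each received vehicle (PBS/DMSO), 1.5 mM MTOB (a keto acid of methionine metabolism) or 250 µM 4-Cl-HIPP (a chlorophenyl hydroxyimino acid) for 4 h. The study's methods describe knockout cells grown out as single-cell clones and do not say how many clones the dKO samples came from, so loss of the CTBPs and a property of a clone cannot be told apart in any comparison of genotypes. The inhibitors were given at different doses and share the vehicle samples of their genotype, so their values are set side by side and were not tested against each other. The replicates were described as biological triplicates with nothing on separate cultures, and p-values measure only the spread between these samples.

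In vertebrate cells the zinc-sensing factor encoded by Mtf1 enters the nucleus when free zinc rises and binds metal response elements in the promoters of metallothionein genes and of Slc30a1. Metallothioneins then buffer the metal, and the Slc30a1 protein exports zinc across the plasma membrane. Slc39 proteins work in the opposite direction and bring zinc into the cytosol, and metallothionein genes also respond to other metals, oxidants and glucocorticoids. In macrophages this system takes part in handling of zinc during inflammation and infection.

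Mt2 and Mt1 are neighbours on chromosome 8 (GRCm39), on the same strand, with 6891 bases between their starts. Mt2 (ENSMUSG00000031762) lies at chr8:94898819-94900207 and Mt1 (ENSMUSG00000031765) at chr8:94905710-94906955. Slc30a1 (ENSMUSG00000037434) lies at chr1:191638808-191645361. The promoters of these 3 genes are shown because textbook targets of Mtf1 differed in their response to the inhibitors. Each runs from 250 bases before to 50 bases after the RefSeq start, 5′ to 3′ on the strand of the gene, as RefSeq gives it for GRCm38.p6, and each matched GRCm39 exactly once, at chr8:94905467-94905766 for Mt1, chr8:94898996-94899295 for Mt2 and chr1:191638643-191638942 for Slc30a1, all on the plus strand. Capitals mark cores of the metal response element, searched as TGCACNC or TGCGCNC on both strands, so that a core on the other strand reads GNGTGCA or GNGCGCA.
Mt1: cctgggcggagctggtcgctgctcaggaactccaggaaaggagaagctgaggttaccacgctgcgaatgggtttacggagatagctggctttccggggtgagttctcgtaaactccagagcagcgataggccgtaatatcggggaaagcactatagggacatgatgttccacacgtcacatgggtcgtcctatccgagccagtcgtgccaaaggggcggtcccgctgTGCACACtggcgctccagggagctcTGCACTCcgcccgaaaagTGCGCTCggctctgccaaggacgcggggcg
Mt2: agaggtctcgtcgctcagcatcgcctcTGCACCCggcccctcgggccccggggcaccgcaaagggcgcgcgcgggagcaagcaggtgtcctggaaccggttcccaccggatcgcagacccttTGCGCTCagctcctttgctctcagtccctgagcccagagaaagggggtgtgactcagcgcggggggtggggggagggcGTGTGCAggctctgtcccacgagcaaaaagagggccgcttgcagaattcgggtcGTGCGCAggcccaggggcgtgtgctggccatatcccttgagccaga
Slc30a1: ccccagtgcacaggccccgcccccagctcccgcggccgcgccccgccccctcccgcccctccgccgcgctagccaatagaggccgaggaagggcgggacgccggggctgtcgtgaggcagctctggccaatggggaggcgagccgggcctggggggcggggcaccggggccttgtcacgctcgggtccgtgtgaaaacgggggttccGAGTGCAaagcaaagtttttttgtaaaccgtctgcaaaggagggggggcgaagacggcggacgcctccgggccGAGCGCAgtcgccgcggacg

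The Mt2 window held 4 cores, at positions -223, -128, -50 and 4 from the RefSeq start. The Mt1 window held 3 cores, at -23, 2 and 20, all on the strand of the gene. Slc30a1 had 2 cores, at -43 and 30. Of 32851 RefSeq promoters of the same length, 25.7% held at least 1 core, 7.11% at least 2, 1.97% at least 3 and 0.517% at least 4. Slc30a5 had 1 core, and no core was found in the windows of Mtf1, Slc39a1 and Slc39a10. The table held no entry for Slc39a6. A match of letters is a description of the sequence, not of binding. The GENCODE M39 gene start minus the RefSeq start was -427 bases for Mt2, -85 for Slc30a1 and -7 for Mt1. The whole Mt2 window, and with it all 4 cores, thus lies inside the Mt2 gene as GENCODE draws it. By the same measure the Slc30a1 cores at -43 and 30 and the Mt1 cores at 2 and 20 lie inside their genes. The starts of single GENCODE transcripts were not compared.

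**Figure D1:**
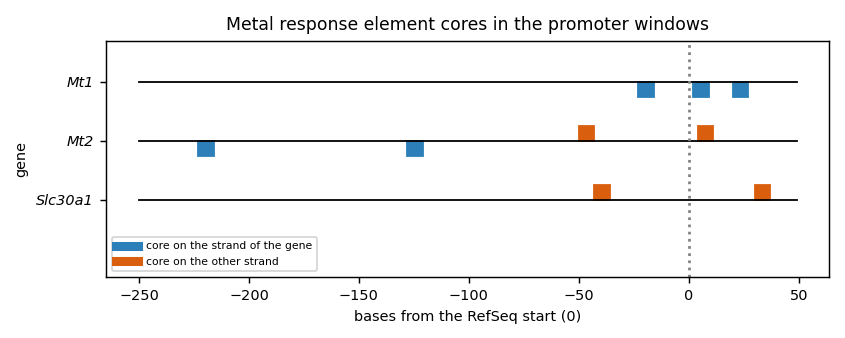
Map of the promoter windows of Mt1, Mt2 and Slc30a1, with the x axis in bases from the RefSeq start and boxes for cores of the metal response element, above or below the line by strand. The 3 cores of Mt1 sit between -23 and 20, while those of Mt2 spread from -223 to 4.

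RNA levels are given as TPM, transcript abundance scaled for transcript length and for the total of the sample, so levels may be compared between genes. Sums of TPM over the listed genes were 999766 to 999897 per sample, replicates correlated at Pearson r of 0.983 to 0.987 over genes, and no library stood apart. Read depth of each sample is unknown from TPM, so the counting error of single values was not computed. Of the 8 genes, the deposited mean normalized count, averaged over samples, was lowest for Slc30a1 (157) and Mt2 (160) and highest for Slc30a5 (929). Ctbp1 was at 170 to 238 TPM in the 9 wildtype samples and 19.7 to 31.5 TPM in the 9 dKO samples. Ctbp2 was at 87.8 to 96.9 TPM in wildtype and 68.5 to 81.9 TPM in dKO, so the Ctbp2 transcript was still present in the samples labelled dKO. The mutations act on the reading frame, and RNA levels do not measure the protein. By western blot, the study reports loss of both the CTBP1 and the CTBP2 protein. All 7 macrophage markers examined were in the table, with a summed level of 2178 to 2524 TPM. In wildtype that sum was 2394 to 2524 TPM with MTOB against 2233 to 2286 TPM with vehicle, and in dKO 2178 to 2483 against 2262 to 2298 TPM. With MTOB 4 of the 7 passed an adjusted p of 0.05 in limma in wildtype (Adgre1, Lyz2 and Cd68 higher, Fcgr3 lower) and 2 in dKO (Lyz2 and Spi1 higher), and with 4-Cl-HIPP 0 did. The part of this shift in the MTOB values below was not tested. Of 3 markers each, 1 was listed for T cells, B cells and epithelial cells and 2 for fibroblasts, with summed levels of at most 2.07, 0.302, 0.295 and 1.12 TPM.

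Under vehicle, Mt1 had the highest level of the 8 genes in both genotypes, followed by Slc30a5, Mt2 and Slc39a1 in wildtype and by Slc30a5, Slc39a1 and Mt2 in dKO. Over all 18 samples Mt1 ranged from 238 to 429 TPM, above 97.5% of the listed genes by its mean. Mt2 ranged from 40.3 to 193 TPM, a span of 4.78-fold that was the widest of the 8 genes. Slc30a1 was the lowest, at 5.33 to 10.8 TPM. Because TPM are shares of the RNA of a sample, a lower level cannot be told apart from more RNA of other genes, nor fewer cells of a kind from less RNA per cell.

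**Figure D2:**
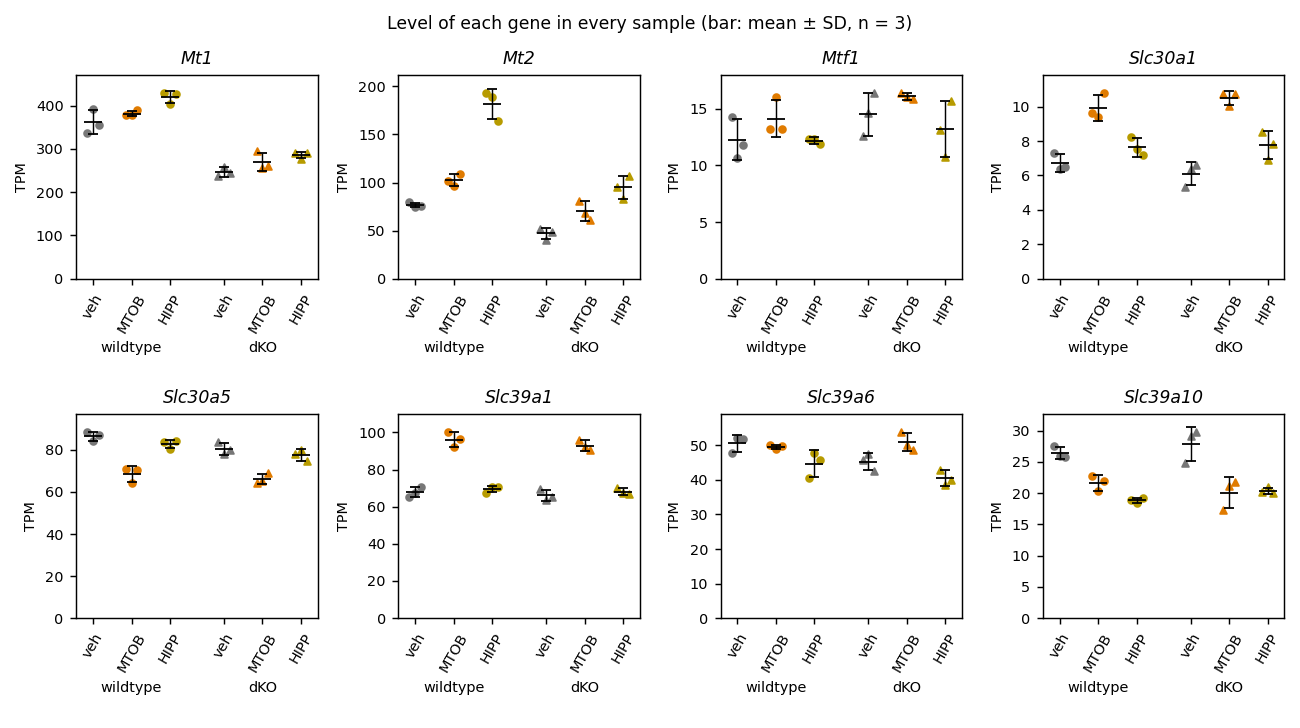
TPM of each of the 8 genes in every sample, with circles for wildtype and triangles for dKO, grey for vehicle (veh), orange for MTOB and yellow for 4-Cl-HIPP (HIPP), and bars for mean ± SD of 3 samples. The wildtype samples given 4-Cl-HIPP sit between 164 and 193 TPM for Mt2, above all other groups, and the MTOB samples stand above the other samples for Slc39a1 in both genotypes.

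The clearest feature of the group was Mt2 with 4-Cl-HIPP. In wildtype cells, Mt2 was at 79.5, 74.9 and 76.0 TPM with vehicle and at 193, 189 and 164 TPM with 4-Cl-HIPP. In dKO cells it was at 52.0, 40.3 and 49.1 TPM with vehicle and at 95.1, 82.6 and 107 TPM with 4-Cl-HIPP. The groups did not overlap in either genotype, and the level with 4-Cl-HIPP was about double that with vehicle in both. The log2 fold change of TPM + 1 was 1.23 (SE 0.12, 95% interval 0.97 to 1.49) in wildtype and 0.99 (SE 0.12, 95% interval 0.73 to 1.25) in dKO, which is 2.34-fold and 1.99-fold.

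Mt2 was higher with MTOB as well. It was at 102, 95.9 and 108 TPM in wildtype and at 81.1, 68.3 and 60.7 TPM in dKO, above all vehicle samples of the same genotype. The log2 fold change was 0.41 (SE 0.12, 95% interval 0.15 to 0.66) in wildtype and 0.56 (SE 0.12, 95% interval 0.30 to 0.82) in dKO. Across the 6 groups Mt2 was ordered from wildtype with 4-Cl-HIPP, wildtype with MTOB, dKO with 4-Cl-HIPP, wildtype with vehicle and dKO with MTOB to dKO with vehicle. In that order, wildtype with MTOB overlapped dKO with 4-Cl-HIPP, and wildtype with vehicle overlapped dKO with MTOB.

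Mt1, which encodes the closely related protein and is the more abundant of the pair, was higher with 4-Cl-HIPP by a smaller fold than Mt2. In wildtype it was at 338, 392 and 355 TPM with vehicle, 378, 378 and 390 TPM with MTOB and 429, 405 and 428 TPM with 4-Cl-HIPP. In dKO it was at 238, 259 and 244 TPM with vehicle, 295, 255 and 261 TPM with MTOB and 290, 277 and 290 TPM with 4-Cl-HIPP. The 4-Cl-HIPP samples lay above all vehicle samples of their genotype, and the MTOB samples overlapped them. The log2 fold change with 4-Cl-HIPP was 0.22 (SE 0.06, 95% interval 0.09 to 0.35) in wildtype and 0.21 (SE 0.06, 95% interval 0.08 to 0.34) in dKO. With MTOB it was 0.08 (SE 0.06) in wildtype and 0.13 (SE 0.06) in dKO, and both intervals included 0.

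In transcripts gained with 4-Cl-HIPP, the gap between the pair was smaller than in fold: the mean was higher by 105 TPM for Mt2 and 58.6 TPM for Mt1 in wildtype, and by 47.7 TPM and 39.0 TPM in dKO. Mt2 made up 17.6% ± 1.51 (SD, n = 3) of the summed Mt1 and Mt2 TPM in wildtype with vehicle, 21.1% ± 0.770 with MTOB and 30.2% ± 2.20 with 4-Cl-HIPP. In dKO these shares were 16.1% ± 2.30, 20.5% ± 1.44 and 24.9% ± 2.00. The wildtype samples given 4-Cl-HIPP, at 27.7 to 31.8%, did not overlap the dKO samples given 4-Cl-HIPP, at 22.9 to 26.9%. The annotated transcripts of Mt1 and Mt2 share no stretch of 31 bases (0 of 1300 and 1134 such stretches), so the levels of the pair do not rest on long shared sequence.

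**Figure D3:**
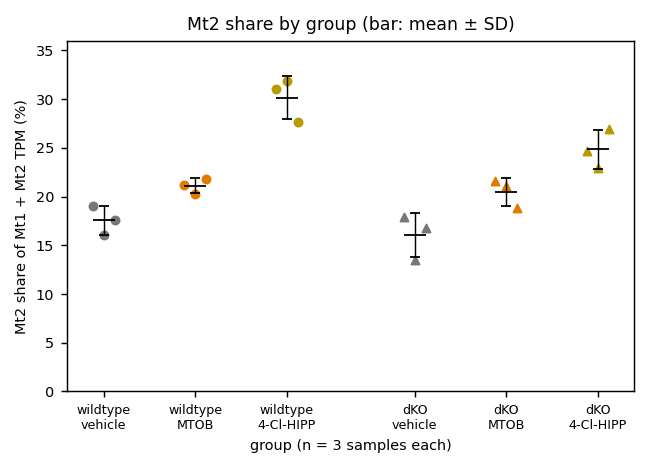
Share of Mt2 in the summed TPM of Mt1 and Mt2, in percent, by group, with circles for wildtype, triangles for dKO and bars for mean ± SD of 3 samples. The share is 16.1 to 17.6% on average with vehicle in either genotype and reaches 30.2% in wildtype with 4-Cl-HIPP.

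Slc30a1, the zinc exporter of the plasma membrane, was higher with MTOB. In wildtype it was at 7.32, 6.39 and 6.49 TPM with vehicle, 9.61, 9.41 and 10.8 TPM with MTOB and 8.24, 7.52 and 7.17 TPM with 4-Cl-HIPP. In dKO it was at 5.33, 6.36 and 6.61 TPM with vehicle, 10.7, 10.0 and 10.7 TPM with MTOB and 8.53, 6.90 and 7.84 TPM with 4-Cl-HIPP. The MTOB samples lay above all others in both genotypes, and the 4-Cl-HIPP samples overlapped vehicle in wildtype and not in dKO. With MTOB the log2 fold change was 0.50 (SE 0.09, 95% interval 0.30 to 0.70) in wildtype and 0.70 (SE 0.09, 95% interval 0.50 to 0.90) in dKO. With 4-Cl-HIPP it was 0.16 (SE 0.09) in wildtype and 0.30 (SE 0.09) in dKO.

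Slc39a1, a widely expressed importer of the plasma membrane, was also higher with MTOB. In wildtype it was at 65.5, 67.6 and 70.9 TPM with vehicle, 100.05, 91.9 and 96.4 TPM with MTOB and 67.6, 70.8 and 70.4 TPM with 4-Cl-HIPP. In dKO it was at 69.6, 63.7 and 65.2 TPM with vehicle, 96.2, 92.0 and 90.4 TPM with MTOB and 70.1, 67.5 and 66.9 TPM with 4-Cl-HIPP. All 6 MTOB samples stood at or above 90.4 TPM and all other 12 samples at or below 70.9 TPM. The log2 fold change with MTOB was 0.49 (SE 0.05, 95% interval 0.39 to 0.59) in wildtype and 0.48 (SE 0.05, 95% interval 0.38 to 0.58) in dKO. With 4-Cl-HIPP it was 0.03 (SE 0.05, 95% interval -0.07 to 0.13) and 0.04 (SE 0.05, 95% interval -0.06 to 0.14). Its processed copy Slc39a1-ps, which shares 617 stretches of 31 bases with it, was at 0 to 1.34 TPM.

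Slc30a5, a transporter that loads zinc into the early secretory pathway, was lower with MTOB. In wildtype it was at 88.4, 84.3 and 87.1 TPM with vehicle, 70.8, 64.3 and 70.7 TPM with MTOB and 83.6, 80.5 and 84.4 TPM with 4-Cl-HIPP. In dKO it was at 83.6, 78.0 and 80.2 TPM with vehicle, 64.5, 65.2 and 69.1 TPM with MTOB and 78.1, 80.0 and 74.7 TPM with 4-Cl-HIPP. The MTOB samples lay below all others in both genotypes. With MTOB the log2 fold change was -0.33 (SE 0.05, 95% interval -0.43 to -0.23) in wildtype and -0.28 (SE 0.05, 95% interval -0.38 to -0.18) in dKO, against -0.06 and -0.05 (SE 0.05) with 4-Cl-HIPP.

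Slc39a10, an importer of the plasma membrane, was lower with both inhibitors. In wildtype it was at 27.5, 26.0 and 25.8 TPM with vehicle, 22.8, 20.2 and 22.0 TPM with MTOB and 18.9, 18.4 and 19.2 TPM with 4-Cl-HIPP. In dKO it was at 24.8, 29.1 and 29.7 TPM with vehicle, 17.3, 21.2 and 21.8 TPM with MTOB and 20.2, 20.9 and 20.01 TPM with 4-Cl-HIPP. No inhibitor sample overlapped the vehicle samples of its genotype. The log2 fold change was -0.28 (SE 0.08, 95% interval -0.45 to -0.10) with MTOB and -0.47 (SE 0.08, 95% interval -0.64 to -0.29) with 4-Cl-HIPP in wildtype, and -0.46 (SE 0.08, 95% interval -0.63 to -0.28) and -0.43 (SE 0.08, 95% interval -0.60 to -0.26) in dKO.

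Slc39a6, which encodes an importer that pairs with the Slc39a10 protein, stayed within 38.6 to 53.8 TPM over the 18 samples. Its means were 50.6 ± 2.47 TPM with vehicle, 49.6 ± 0.592 with MTOB and 44.8 ± 3.82 with 4-Cl-HIPP in wildtype, and 45.3 ± 2.55, 50.9 ± 2.61 and 40.6 ± 2.23 in dKO (SD, n = 3). The dKO samples given MTOB lay above those given vehicle, and all other inhibitor groups overlapped their vehicle group. With 4-Cl-HIPP the log2 fold change of Slc39a6 was -0.18 (interval -0.31 to -0.04) in wildtype and -0.16 (interval -0.29 to -0.02) in dKO. With MTOB it was -0.03 (interval -0.16 to 0.11) in wildtype and 0.16 (interval 0.03 to 0.30) in dKO. Slc39a6 was thus lower with 4-Cl-HIPP in both genotypes, and it passed the adjusted p in no inhibitor comparison. Mtf1 stayed within 10.7 to 16.4 TPM, its inhibitor groups overlapped vehicle in both genotypes, and all 4 intervals of its log2 fold change included 0, running from -0.07 to 0.46 and -0.12 to 0.41 with MTOB and from -0.27 to 0.27 and -0.41 to 0.13 with 4-Cl-HIPP, in wildtype and dKO. Any difference in the RNA of this sensor lay within these intervals, and the zinc bound by its protein is not seen in RNA. The library kit did not keep strand, and both genes overlap a gene of the opposite strand, Slc39a6 with Elp2 (1047 bases, 59.3 to 82.3 TPM) and Mtf1 with 1110065P20Rik (761 bases, 18.8 to 37.3 TPM), so their levels are uncertain. Slc39a10 shares 951 bases with the same-strand gene Gm28151 (0.964 to 4.02 TPM), a further 3870 with the same-strand Gm37393, and Slc30a1 shares 832 bases with the opposite-strand gene 1700034H15Rik (0.206 to 1.54 TPM). Mt2 shares 1222 bases with the opposite-strand gene Gm45774 (0 to 0.0813 TPM), and Slc30a5 shares 336 with the opposite-strand Gm61460. In GENCODE M39 the opposite-strand noncoding gene Gm66066 overlaps Slc39a1 over 5787 bases, its full length. No TPM is listed for Gm37393, Gm66066 or Gm61460, so reads from them could not be told apart from those of Slc39a10, Slc39a1 and Slc30a5.

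A gene was called when its limma p-value, adjusted by Benjamini-Hochberg over all 16383 genes tested, was below 0.05 and its fold change on TPM + 1 exceeded 1.5. With MTOB in wildtype 0 of the 8 genes were called (2.01% of all genes), and 3 passed the adjusted p alone, Slc30a1 and Slc39a1 higher and Slc30a5 lower (7.26% of all genes). With MTOB in dKO 1 was called, Slc30a1 (1.63% of all genes), and 5 passed the adjusted p, with Mt2 higher and Slc39a10 lower in addition (6.58%). With 4-Cl-HIPP 1 of 8 was called in wildtype (0.140%) and 1 in dKO (0.153%), Mt2 in both. Slc39a10 was the only other gene of the 8 to pass the adjusted p with 4-Cl-HIPP, lower in both genotypes, for 2 of 8 in wildtype (0.366%) and 2 of 8 in dKO (0.501%). The samples did not overlap vehicle for 5 of 8 genes with MTOB in wildtype (22.6% of all genes), 6 in dKO (21.0%), 3 with 4-Cl-HIPP in wildtype (12.6%) and 4 in dKO (13.7%). Nothing is read from these counts, since the inhibitor responses entered the choice of the genes.

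**Figure D4:**
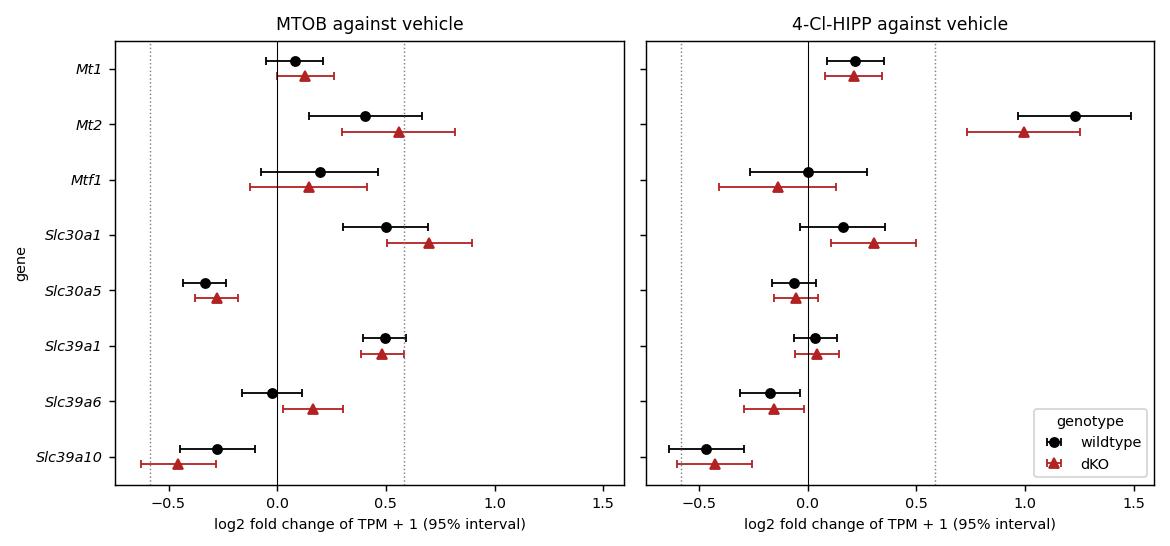
Log2 fold change of TPM + 1 against vehicle for MTOB (left) and 4-Cl-HIPP (right), with bars for 95% intervals from limma, black circles for wildtype, red triangles for dKO and dotted lines at a fold of 1.5. Mt2 stands at 1.23 and 0.99 with 4-Cl-HIPP, while Slc30a1, Slc39a1 and Slc30a5 lie away from 0 with MTOB and close to 0 or nearer to it with 4-Cl-HIPP.

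Over the 8 genes the median log2 fold change was 0.14 with MTOB in wildtype and 0.16 in dKO, beside -0.01 over all genes in both. With 4-Cl-HIPP it was 0.02 in wildtype and -0.01 in dKO, beside 0.01 and 0.00 over all genes. With 4-Cl-HIPP 5 of the 8 values were above 0 and 3 below in wildtype, and 4 and 4 in dKO.

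Whether some of these genes passed the adjusted p or were called depended on the samples and groups in the fit or on the pseudocount. Slc39a10 with 4-Cl-HIPP in wildtype no longer passed the adjusted p when any 1 of the 6 wildtype samples compared was left out, with a log2 fold change between -0.48 and -0.44, and in dKO, of the 6 dKO samples compared, it passed only when dKO vehicle replicate 1 was the one left out. Mt2 with MTOB in dKO passed it with a log2 fold change of 0.56 and no longer did without dKO vehicle replicate 2 (0.45) or dKO MTOB replicate 1 (0.45). With only the 2 dKO groups in the fit, Mt2 with 4-Cl-HIPP kept its log2 fold change of 0.99 and did not pass. The call of Slc30a1 with MTOB in dKO was lost with a pseudocount of 5, where the log2 fold change was 0.48.

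Whether an inhibitor acted differently with and without CTBPs was read from the difference between its effects, wildtype minus dKO. This difference is made of the fold changes the genes were selected on, so for the 8 genes it is a description. At an adjusted p of 0.05 in limma 0 of the 8 passed for either inhibitor. Over all genes 15 passed for MTOB (0.0916%), and 0 for 4-Cl-HIPP (0.00%), where 734 had an unadjusted p below 0.05. For Mt2 the difference in log2 fold change was -0.15 (95% interval -0.52 to 0.21) for MTOB and 0.24 (95% interval -0.13 to 0.60) for 4-Cl-HIPP. For Slc30a1 with MTOB it was -0.20 (95% interval -0.48 to 0.08), and for Slc39a1 it was 0.01 (95% interval -0.13 to 0.15). For Slc39a6 with MTOB it was -0.19 (95% interval -0.39 to 0.01). These intervals leave room for differences and do not show that the effects were equal.

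The metallothioneins differed between the genotypes without inhibitor. Mt1 was at 362 ± 27.8 TPM in wildtype and 247 ± 10.6 TPM in dKO under vehicle (SD, n = 3), lower by a log2 difference of -0.55 (SE 0.06, 95% interval -0.68 to -0.42). Mt2 was at 76.8 ± 2.40 TPM in wildtype and 47.1 ± 6.08 TPM in dKO, with -0.70 on the log2 scale (SE 0.12, 95% interval -0.96 to -0.44). All 3 dKO samples lay below all 3 wildtype samples for both genes. The summed level of the pair was 439 ± 25.7 TPM in wildtype and 294 ± 4.50 TPM in dKO, and the share of Mt2 in that sum overlapped between the genotypes. Mt2 with 4-Cl-HIPP in dKO, at 94.8 ± 12.1 TPM, thus stood above the wildtype vehicle level, and Mt1 with 4-Cl-HIPP in dKO, at 286 ± 7.30 TPM, stayed below it.

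The other 6 genes did not pass in that comparison. Their log2 fold changes, dKO against wildtype, were 0.23 for Mtf1 (SE 0.13), -0.13 for Slc30a1 (SE 0.09), -0.10 for Slc30a5 (SE 0.05), -0.04 for Slc39a1 (SE 0.05), -0.16 for Slc39a6 (SE 0.06) and 0.07 for Slc39a10 (SE 0.08). Samples of the genotypes did not overlap for 4 of the 8 genes, Mt1, Mt2, Slc30a5 and Slc39a6, all lower in dKO (26.1% of all genes did not overlap). Mt2 was the 1 gene of the 8 called (4.83% of all genes), and Mt1 and Mt2 were the 2 of 8 past the adjusted p alone (10.7% of all genes). With 8 genes these counts are too small to set the group apart from the background. Without wildtype vehicle replicate 1 the log2 fold change of Mt1 was -0.60 and it was called too. Of the macrophage markers, Adgre1 was lower in dKO (log2 fold change -1.59, SE 0.18) and Itgam and Cd68 were higher (1.57, SE 0.18, and 0.21, SE 0.04), and their part in the lower metallothionein level was not tested.

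The remaining zinc transporters of the Slc30 and Slc39 families served as a comparison list of 19 genes, of which 15 were in the table and 13 were tested. Slc30a4, a vesicular zinc transporter, was the only one to pass with MTOB, where 1 of 13 was called in each genotype. It was at 9.33, 11.1 and 9.57 TPM with vehicle and 16.5, 16.8 and 19.1 TPM with MTOB in wildtype, a log2 difference of 0.75 (SE 0.09, limma adjusted p = 4.39e-05). In dKO it was at 11.4, 11.6 and 11.05 TPM with vehicle and 16.7, 19.6 and 18.6 TPM with MTOB, a log2 difference of 0.64 (SE 0.09, limma adjusted p = 0.000249). With 4-Cl-HIPP 0 of 13 passed in limma, and Slc30a4 overlapped vehicle in wildtype at 9.57 to 11.6 TPM (log2 difference 0.11) and lay below it in dKO at 9.84 to 10.96 TPM (-0.13, SE 0.09 in both). With MTOB, then, 2 genes of the Slc30 family, Slc30a1 and Slc30a4, were higher in both genotypes. Slc30a5, of the same family, was lower in both, with log2 fold changes of -0.33 in wildtype and -0.28 in dKO.

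Slc39a14, an importer of zinc, iron and manganese that inflammatory signals induce, was the only gene of that list to pass the adjusted p by genotype. It was at 54.2, 52.7 and 56.5 TPM in wildtype and 34.2, 45.0 and 38.5 TPM in dKO under vehicle, a log2 difference of -0.47 (SE 0.14, limma adjusted p = 0.0373). The median log2 fold change of the 13 genes was 0.06 with MTOB in wildtype, -0.01 in dKO, 0.07 and 0.04 with 4-Cl-HIPP and 0.06 by genotype. Slc39a4 had point values near those of Slc30a4 with MTOB on the scale of TPM + 1, 0.70 and 0.72 (SE 0.22). It did not pass (adjusted p = 0.0751 and 0.0696, limma). At its mean of 1.55 TPM that scale understates the fold change. Its mean was 1.34 TPM with vehicle and 2.80 TPM with MTOB in wildtype, and 0.689 and 1.87 TPM in dKO. Slc30a4 and Slc39a14 were named because they passed, so their p-values place them against the threshold and are not separate evidence. The other metallothionein genes, Mt3 and Mt4, were not listed in the table.

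**Figure D5:**
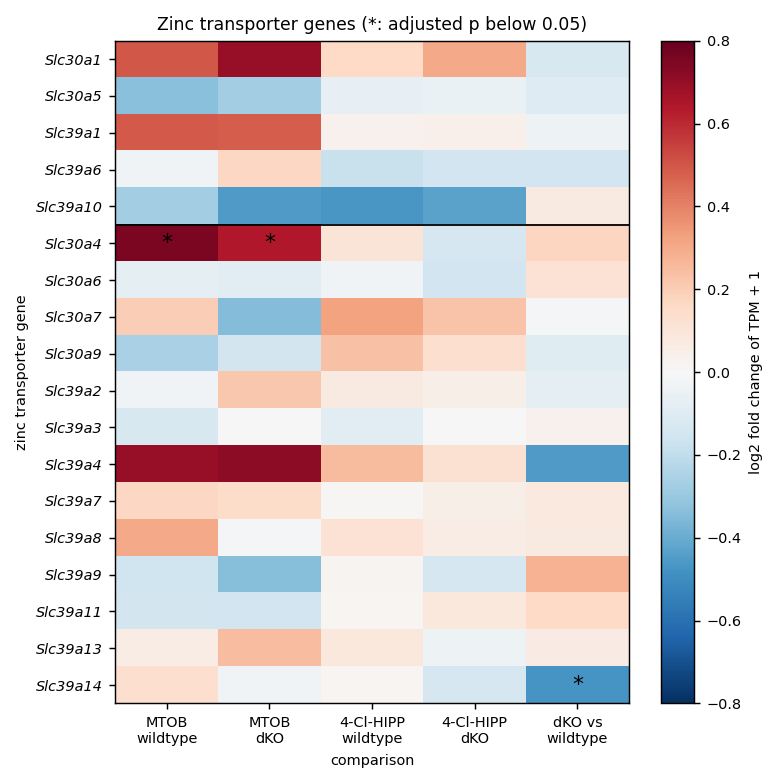
Heat map of log2 fold changes of TPM + 1 for the 5 zinc transporters described (above the line) and the 13 other tested zinc transporters (below it), in 5 comparisons, with red for higher and blue for lower and an asterisk for an adjusted p below 0.05, drawn in the inhibitor columns for the genes below the line alone. Slc30a4 carries it with MTOB, at 0.75 and 0.64, and Slc39a14 by genotype, at -0.47.

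Other lists that touch metallothionein control were read alongside. These lists were chosen with earlier results of these data known, and genes in them were named for small p-values. Their p-values place them against the threshold used for all genes and are not separate evidence. Of 11 copper handling genes, the endosomal copper transporter Slc31a2 was the only one to pass with MTOB. It was at 1.66, 2.95 and 2.91 TPM with vehicle and 7.37, 4.57 and 8.90 TPM with MTOB in wildtype, and at 3.70, 1.98 and 3.27 TPM and 7.19, 8.52 and 6.88 TPM in dKO, log2 fold changes of 1.16 and 1.12 (SE 0.22, adjusted p = 0.00373 and 0.00557, limma). With 4-Cl-HIPP 0 of 11 passed. By genotype 2 of 11 passed the adjusted p (10.7% of all genes), Cox17 and Sod1, higher in dKO. They were named after their values were seen.

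Of 8 targets of NRF2, the transcription factor of the response to oxidants, all 8 had point values above 0 with MTOB in each genotype. In each genotype 6 of them passed the adjusted p of 0.05, beside 7.26% of all genes in wildtype and 6.58% in dKO. Hmox1, which degrades heme, had log2 fold changes of 2.10 and 2.24 (SE 0.07, adjusted p = 3.35e-11 and 3.19e-11, limma), and the cystine transporter gene Slc7a11 had 1.60 and 1.90 (SE 0.10). The others to pass were Gclm, Gclc, Txnrd1 and Srxn1. With 4-Cl-HIPP 0 of the 8 passed, and Hmox1 stood at -0.02 and 0.00 (SE 0.07). By genotype 4 of the 8 passed the adjusted p (10.7% of all genes), Nqo1 and Txnrd1 higher in dKO and Hmox1 and Slc7a11 lower. They were named after their values were seen.

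Of 8 targets of the glucocorticoid receptor, another inducer of metallothioneins, 7 were in the table and tested. Cdkn1a, a cell cycle inhibitor that other pathways also induce, was the only one to pass with MTOB, at 0.68 in wildtype and 0.60 in dKO (SE 0.08, adjusted p = 6.52e-05 and 0.000287, limma), and 0 of 7 passed with 4-Cl-HIPP. The median log2 fold change of the 7 with 4-Cl-HIPP was 0.18 in wildtype and 0.17 in dKO, beside 0.01 and 0.00 over all genes. With MTOB it was 0.11 and -0.0003, beside -0.01 over all genes in both. In dKO under vehicle 6 of the 7 had point values above wildtype and 1 below. Past the adjusted p were 3 of 7 (10.7% of all genes). These were Tsc22d3, higher by 0.85, Sgk1 by 2.10 and Cdkn1a by 0.46 on the log2 scale, the opposite direction to Mt1 and Mt2. The part of copper, oxidants or glucocorticoid signalling in the levels of the 8 genes was not tested.

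The genes whose levels followed those of Mt2 and Mt1 most closely are given as a description over the 18 samples, which share genotype and treatment groups. Among the 11043 genes whose mean normalized count reached 10, Pearson r of log2(TPM + 1) with Mt2 was highest for Thap7 (0.879), Jun (0.852), Sipa1l2 (0.847), Dok3 (0.846) and Hmgb1 (0.843). By rank the order differs: 3 of these 5 were among the 5 highest by Spearman's rho (Jun, Dok3 and Thap7), behind Rbm12b1, named after its value was seen. Within the 9 samples of one genotype the values for Thap7 were 0.805 in wildtype and 0.810 in dKO, and those for Dok3 were 0.877 and 0.861. For Jun they were 0.570 and 0.959. Thap7 had its highest mean in wildtype with 4-Cl-HIPP, at 64.8 ± 6.49 TPM against 51.8 ± 5.35 with vehicle, and was at 55.5 ± 4.55 against 43.2 ± 2.14 TPM in dKO (SD, n = 3).

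With Mt1, the highest values were those of Rab34 (0.970), Syt11 (0.964), Ighm (0.952), Chst10 (0.952) and Ckb (0.952), of which 2, Rab34 and Chst10, were among the 5 highest by Spearman's rho. These genes were all lower in dKO than in wildtype, for example Rab34 at 35.8 ± 2.24 TPM in wildtype and 22.4 ± 2.44 TPM in dKO under vehicle, so r over all samples includes the difference between genotypes. Within one genotype (n = 9) Rab34 had an r of 0.731 in wildtype and 0.891 in dKO, and Chst10 of 0.908 and 0.374. No gene was among the closest 5 of both metallothioneins.

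Among the 8 genes, r between Mt1 and Mt2 was 0.815 in wildtype and 0.824 in dKO (n = 9 each). Slc30a1 and Slc39a1, both higher with MTOB, had 0.867 and 0.854. Slc30a5 ran opposite to Slc39a1, with -0.912 and -0.910, and Slc39a10 ran opposite to Mt2, with -0.908 and -0.849. These values restate the differences between the 3 treatments within a genotype.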

How the data were processed

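RNA of the 18 samples was sequenced by the study as unstranded paired-end libraries. The authors quantified transcripts with Salmon 1.9.0 on the GENCODE M28 transcriptome (GRCm39) and deposited one table of TPM per gene and sample, with a mean normalized count per gene from DESeq2 (a signal averaged over samples, used here as filter and trend). The deposited log2 fold changes and p-values are the authors' own comparisons and were not used. Here log2(TPM + 1) was fitted in limma 3.58.1 (R 4.3.3) with 6 group means over all 18 samples and a variance trend on the mean normalized count. Genes above its 10th percentile (0.222) were kept, 16383 of 18204. P-values were adjusted by Benjamini-Hochberg over all of them, and the fit was tested on simulated data. Fold changes of TPM + 1 understate those of low genes. The fit of all groups, rather than of those compared, shares one estimate of the spread.

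The 8 genes and all lists were chosen with earlier results of these data known. Named were the 8 genes, other zinc transporters past an adjusted p of 0.05, up to 3 genes per context list with the smallest p over the inhibitor comparisons, and the 5 genes with the highest Pearson r with Mt1 or Mt2. Also named, outside that rule, were further context genes and macrophage markers past an adjusted p of 0.05, and Slc39a4 for its point values. Other exceptions are stated where they occur. Promoters came from RefSeq, 7 of the 8 genes matching by symbol, and gene positions from GENCODE M39. Alternatives were the pseudocount, the filter, rescaled TPM, no trend, a replicate block, only the compared groups, and each sample left out.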

Additional observations from a re-analysis of the deposited data

How the results depend on the processing

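The limits are those of TPM in groups of 3: read depth is unknown, and calls of genes near the thresholds moved with the settings. With a pseudocount of 5, 185 genes were called for MTOB in wildtype (329 as reported), 131 for MTOB in dKO (267), 6 for 4-Cl-HIPP in wildtype (23), 13 for 4-Cl-HIPP in dKO (25) and 426 by genotype (792), and 0 of the 8 zinc genes were called for MTOB in dKO (1 as reported). When the fit held the compared groups alone, 135 genes were called for MTOB in dKO, 15 for 4-Cl-HIPP in wildtype, 7 for 4-Cl-HIPP in dKO and 2 for the difference of the 4-Cl-HIPP effect between genotypes (0 as reported). In that fit, 2 of the 8 genes passed the adjusted p for MTOB in dKO (5 as reported) and 0 for 4-Cl-HIPP in dKO (2), where 0 were called (1). When the filter was a mean normalized count of 10, 5 of the 8 passed for MTOB in wildtype (3), Mt2 and Slc39a10 in addition. With rescaled TPM 2 of the 8 were called for MTOB in dKO, Mt2 in addition. Without the variance trend the difference of the MTOB effect gave 6 genes (15).

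Same-numbered samples did not deviate together (residual r -0.136 to 0.0607 within a genotype, 0 of 18 pairs above 0.1, and 1 of 18 samples closest to its own number), so the numbers were not taken as pairs. A replicate block gave 8 genes for the difference of the MTOB effect and a replicate block within genotype gave 6. Under the first Mt2 and under the second Slc39a10 passed the adjusted p for MTOB in wildtype.

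Leaving out each sample in turn gave 293 to 315 called genes for MTOB in wildtype, 224 to 278 for MTOB in dKO, 9 to 23 and 12 to 31 for 4-Cl-HIPP in wildtype and dKO, 706 to 746 by genotype, 7 to 20 for the difference of the MTOB effect and 0 to 3 for that of 4-Cl-HIPP. Of the 8 genes, 1 to 2 were called for MTOB in dKO and 1 to 2 by genotype. The adjusted p was passed by 4 to 5 for MTOB in dKO, by 1 for 4-Cl-HIPP in wildtype and by 1 to 2 for 4-Cl-HIPP in dKO. The difference between genotypes changed sign, without passing the test, for the MTOB effect on Mt1 (-0.097 to 0.015 on the log2 scale), Mtf1 (-0.039 to 0.15) and Slc39a1 (-0.026 to 0.042), and for the 4-Cl-HIPP effect on Mt1 (-0.041 to 0.066), Slc30a5 (-0.037 to 0.013), Slc39a1 (-0.045 to 0.022), Slc39a6 (-0.068 to 0.050) and Slc39a10 (-0.084 to 0.042). The cause of these changes was not tested.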
